A study of Homo sapiens with 18 samples.

Results

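Histone genes were followed across 18 poly(A)-selected RNA-seq libraries of MDA-MB-231 cells, an established line of human triple-negative breast cancer, grown as spheroids. The members were genes whose symbol begins as a human histone gene symbol does, in the current nomenclature for H1, H2AC, H2AX, H2AZ, H2BC, H3C, H3-3 and H4C or in the older HIST form. The members described are 59 of the 21411 genes in the count table, and the rule used no measured value. Of these, 51 were replication-dependent histone genes, 5 were replacement histone genes (H1-10, H2AZ1, H2AZ2, H3-3A and H3-3B), 1 was H2AX, which has features of both kinds, and 2 were a pseudogene (H2BC20P) and a divergent transcript (H2AZ1-DT).

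The study asked what the Notch ligand Jagged1, encoded by JAG1, does to the transcriptome of these spheroids in a basement membrane matrix. In each library, 50000 cells were seeded in Matrigel at 2 mg/ml and grown for 7 days, and each of the 6 groups held 3 libraries labelled as biological replicates. Jag1WT was the parental line. Jag1KO was the line after CRISPR/Cas9 editing of JAG1, a mixture of clones that each grew from a single cell. The Jag1KO + rescue group carried a Jagged1 cDNA plasmid, and the Jag1KO + ctrl group carried the empty plasmid. Per the study's methods, both plasmid lines were kept under G418 selection. The siCtrl and siJag1 groups were Jag1WT cells given a nontargeting siRNA or a JAG1 siRNA before seeding.

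Replication-dependent histone genes supply the core histones H2A, H2B, H3 and H4 and the linker histone H1 during S phase. Their transcripts typically end in a conserved stem-loop bound by SLBP rather than in a poly(A) tail, so that poly(A) selection retains few of them. Replacement histones are made throughout the cell cycle from ordinary polyadenylated transcripts and take the place of the others in chromatin between divisions.

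Total counts per library ran from 10330581 to 18327890 with a median of 15168046. JAG1 had 433, 585 and 522 CPM (counts scaled to the library size, adjusted by the TMM method of edgeR) in the 3 Jag1WT libraries, 116, 205 and 149 in Jag1KO, 534, 657 and 646 in Jag1KO + rescue, 110, 134 and 147 in Jag1KO + ctrl, 441, 626 and 531 in siCtrl, and 166, 203 and 131 in siJag1. Every library thus stood on the side of JAG1 that its label gives. VIM, a mesenchymal marker of this line, was at 2184 to 4946 CPM, ESR1 was at 0 to 0.136 CPM, and the leukocyte gene PTPRC was at 0 to 0.196 CPM. The other leukocyte markers looked at did not all stay as low. CD3E was at 0 to 0.202 CPM, CD14 at 1.23 to 4.99 CPM and CD68 at 88.9 to 209 CPM. In 3 libraries, Jag1KO replicate 1 and Jag1KO + ctrl replicates 2 and 3, RNAs that carry no poly(A) tail (RN7SL1, RN7SK and other small RNAs, 25 measured) summed to 245, 668 and 378 CPM, against 13.1 to 28.4 CPM in the other 15 libraries.

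The stem-loop could be read for most members. In the hg38 annotation, 42 of the 51 replication-dependent genes had a transcript that ended at the stem-loop and no other transcript ending near a polyadenylation signal. Of these, H2BC18 and H2AC6 each had 2 transcripts, of which only 1 held the stem-loop. Another 7 genes had both ends (H2BC21, H2BC4, H2BC5, H2BC6, H2BC11, H3C10 and H2BC15), and 2 had neither (H2AC11 and H2AC15). All 5 replacement genes had polyadenylated ends and no stem-loop. H2AX had the stem-loop and, downstream of it, a polyadenylation signal. The element has 16 bases, and a match to its letters near the end of a coding transcript was present in 72 of 19676 protein-coding genes (0.366%), of which 48 were members. The forms are shown because their arms set the H4 genes and H2AX apart from the H1, H2A, H2B and H3 genes. Bases of the paired arms are in capitals, the loop is in lower case, and T stands for U.
Shared by 29 genes, among them H1-2, H2AC6 and H2AC19: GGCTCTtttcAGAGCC
Shared by 8 genes, among them H2BC12 and H2BC5: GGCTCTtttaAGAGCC
Shared by 6 H4 genes, among them H4C8: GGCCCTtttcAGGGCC
Shared by 4 H4 genes, H4C14, H4C15, H4C9 and H4C12: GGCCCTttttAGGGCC
H2AX alone: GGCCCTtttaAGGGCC
The 10 H4 genes and H2AX thus shared 1 pair of arms, the H1, H2A, H2B and H3 genes with the element shared another, and the loop differed within each set. The remaining 2 forms belonged to H2BC10 and H2AC20.

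Promoters of the members were searched for known elements of histone promoters. For 54 of the 59 members, 47 of them replication-dependent, the 250 bases before the transcription start were available (RefSeq, GRCh38.p14). The letters searched, on both strands, were those of the TATA box (TATAAA), the CCAAT box (CCAAT), the octamer bound by OCT1 (ATTTGCAT) and the H1 box (AAACACA). The TATA box was found in 33 of 47 replication-dependent promoters (70.2%) against 11.1% of all 27305 promoters of that length, and the CCAAT box in 41 (87.2%) against 33.0%. The octamer was found in 21 (44.7%) against 1.66%, and these 21 were 9 of 13 H2A and 12 of 15 H2B promoters, with none among the H1, H3 and H4 promoters. The H1 box was found in all 4 H1 promoters and in no other replication-dependent promoter, against 4.95% of all promoters. Of the 5 replacement promoters, 3 held the TATA box, 4 the CCAAT box, 1 the octamer and 0 the H1 box, so that the TATA box and the CCAAT box did not separate the classes. A match says only that these letters stand in the window. The most abundant replication-dependent H1, H2A and H2B genes and the replacement gene H3-3B are shown, since their levels carry the results below, with the matches in capitals.
H1-2, minus strand, chr6:26056471-26056720: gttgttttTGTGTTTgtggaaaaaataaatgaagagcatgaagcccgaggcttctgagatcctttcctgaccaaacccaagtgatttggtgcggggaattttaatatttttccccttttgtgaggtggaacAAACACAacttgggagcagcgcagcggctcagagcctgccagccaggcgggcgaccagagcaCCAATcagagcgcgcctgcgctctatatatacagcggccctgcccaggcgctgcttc
H2AC6, plus strand, chr6:26123922-26124171: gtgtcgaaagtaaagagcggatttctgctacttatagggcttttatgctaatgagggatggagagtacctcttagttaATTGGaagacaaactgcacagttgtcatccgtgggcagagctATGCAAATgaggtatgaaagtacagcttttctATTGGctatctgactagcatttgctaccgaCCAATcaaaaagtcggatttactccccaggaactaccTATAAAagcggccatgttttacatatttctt
H2BC12, minus strand, chr6:27146859-27147108: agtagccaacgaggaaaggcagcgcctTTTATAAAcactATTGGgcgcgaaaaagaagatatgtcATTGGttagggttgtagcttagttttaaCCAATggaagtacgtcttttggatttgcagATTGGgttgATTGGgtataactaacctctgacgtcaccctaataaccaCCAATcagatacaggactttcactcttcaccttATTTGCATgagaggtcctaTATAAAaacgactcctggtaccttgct
H3-3B, minus strand, chr17:75779780-75780029: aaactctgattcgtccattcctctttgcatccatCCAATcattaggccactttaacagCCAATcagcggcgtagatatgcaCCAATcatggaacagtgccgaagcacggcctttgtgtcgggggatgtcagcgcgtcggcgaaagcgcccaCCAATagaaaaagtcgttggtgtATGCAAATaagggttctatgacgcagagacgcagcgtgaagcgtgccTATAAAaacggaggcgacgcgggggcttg
Most members sit in 2 stretches of the genome. Of the replication-dependent genes, 40 lie on chromosome 6 between positions 25726063 and 27893891 and 11 on chromosome 1 between 149782689 and 149887965 (hg38), while the replacement genes and H2AX lie apart on other chromosomes or loci: H3-3A at 1:226061831-226072019, H3-3B at 17:75776434-75779779, H1-10 at 3:129314771-129316286, H2AZ1 at 4:99948088-99950275, H2AZ2 at 7:44826889-44848126 and H2AX at 11:119093874-119095465.

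Levels differed between the classes. The 5 replacement genes summed to 786 to 1252 CPM per library, and the 51 replication-dependent genes to 71.7 to 282 CPM, or 9.12% to 24.2% of the replacement sum. On average over 18 libraries, H3-3B was at 536 CPM, H2AZ1 at 286, H2AZ2 at 93.2, H3-3A at 57.1 and H1-10 at 40.9. Among replication-dependent genes, 10 of 51 averaged above 1 CPM, and 41 below. Only H2BC12 (38.6 CPM), H1-2 (37.8), H2BC5 (15.5) and H2AC6 (11.0) averaged above 10, followed by H2AC19 (4.38), H2BC18 (3.10), H2BC21 (2.78), H4C14 (1.38), H4C8 (1.27) and H2BC4 (1.26). In this replication-dependent set, 28 genes stayed below 1 CPM in every library, while no member was at 0 reads in all 18. H1-1, H2BC7 and H2BC10 had 1 read each in all 18 libraries together. Scaled by length, which is the fairer comparison between genes, H2AZ1 led at 302 CPM per kilobase, followed by H3-3B (187), H3-3A (53.8), H1-2 (51.7), H2BC12 (46.1), H1-10 (27.1), H2AC6 (20.1), H2AZ2 (19.8) and H2AX (14.4). H1-2, whose product is a somatic linker histone, was thus the strongest replication-dependent transcript per length, with a stem-loop end alone. The 42 genes with a stem-loop end and no annotated polyadenylated end had a median level of 0.116 CPM, and 7 of them exceeded 1 CPM. The 7 genes with both ends had a median of 0.770 CPM. Among the former, H2BC18 and H2AC6 also had a transcript without the stem-loop. For H2BC12 the length behind the deposited values, 839 bases, exceeded its annotated transcript (6:27146361-27146855). Which transcript forms gave the reads was not tested.

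**Figure D1:**
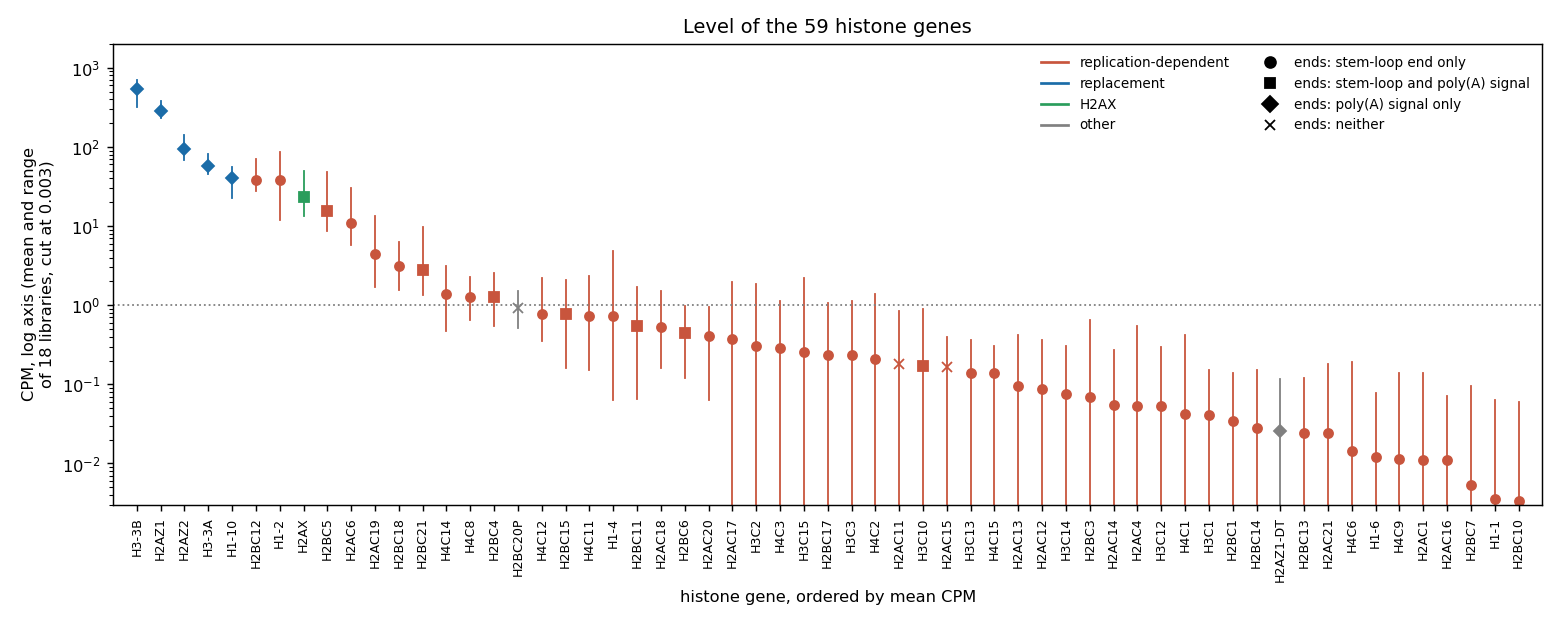
Mean CPM of each histone gene over 18 libraries on a log axis, with lines for the range over libraries, colours for the class and marker shapes for the annotated transcript end. The replacement genes sit at the upper end, with H3-3B at 536 CPM and H2AZ1 at 286 CPM, and 41 of the 51 replication-dependent genes sit below 1 CPM.

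Levels of the replacement genes are given by library, since they carry most of the histone reads. H3-3B, which encodes histone H3.3 together with H3-3A, was at 442, 618 and 489 CPM in Jag1WT, 547, 654 and 520 in Jag1KO, 693, 609 and 676 in Jag1KO + rescue, 321, 368 and 587 in Jag1KO + ctrl, 461, 582 and 540 in siCtrl, and 487, 444 and 617 in siJag1. The rescue libraries lay above all Jag1KO + ctrl libraries, and ctrl replicates 1 and 2 were the lowest of all. H2AZ2, one of the genes of the transcription-linked variant H2A.Z, was at 79.7, 98.7 and 70.9 CPM in Jag1WT, 71.6, 120 and 113 in Jag1KO, 67.7, 95.8 and 72.2 in Jag1KO + rescue, 110, 126 and 73.6 in Jag1KO + ctrl, 75.2, 99.2 and 83.0 in siCtrl, and 85.1, 142 and 94.3 in siJag1. The highest 5 libraries, siJag1 replicate 2, Jag1KO + ctrl replicates 2 and 1, and Jag1KO replicates 2 and 3, came from 3 groups, and their groups overlapped the others. H2AX, the variant phosphorylated at DNA breaks, ranged from 13.6 to 49.5 CPM and was highest in Jag1KO + ctrl replicate 2. H2AZ1 ranged from 229 to 382 CPM, H3-3A from 46.0 to 80.4 CPM and H1-10 from 22.5 to 56.0 CPM, and for all 3 genes the groups that were neighbours in the order of their means overlapped.

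**Figure D2:**
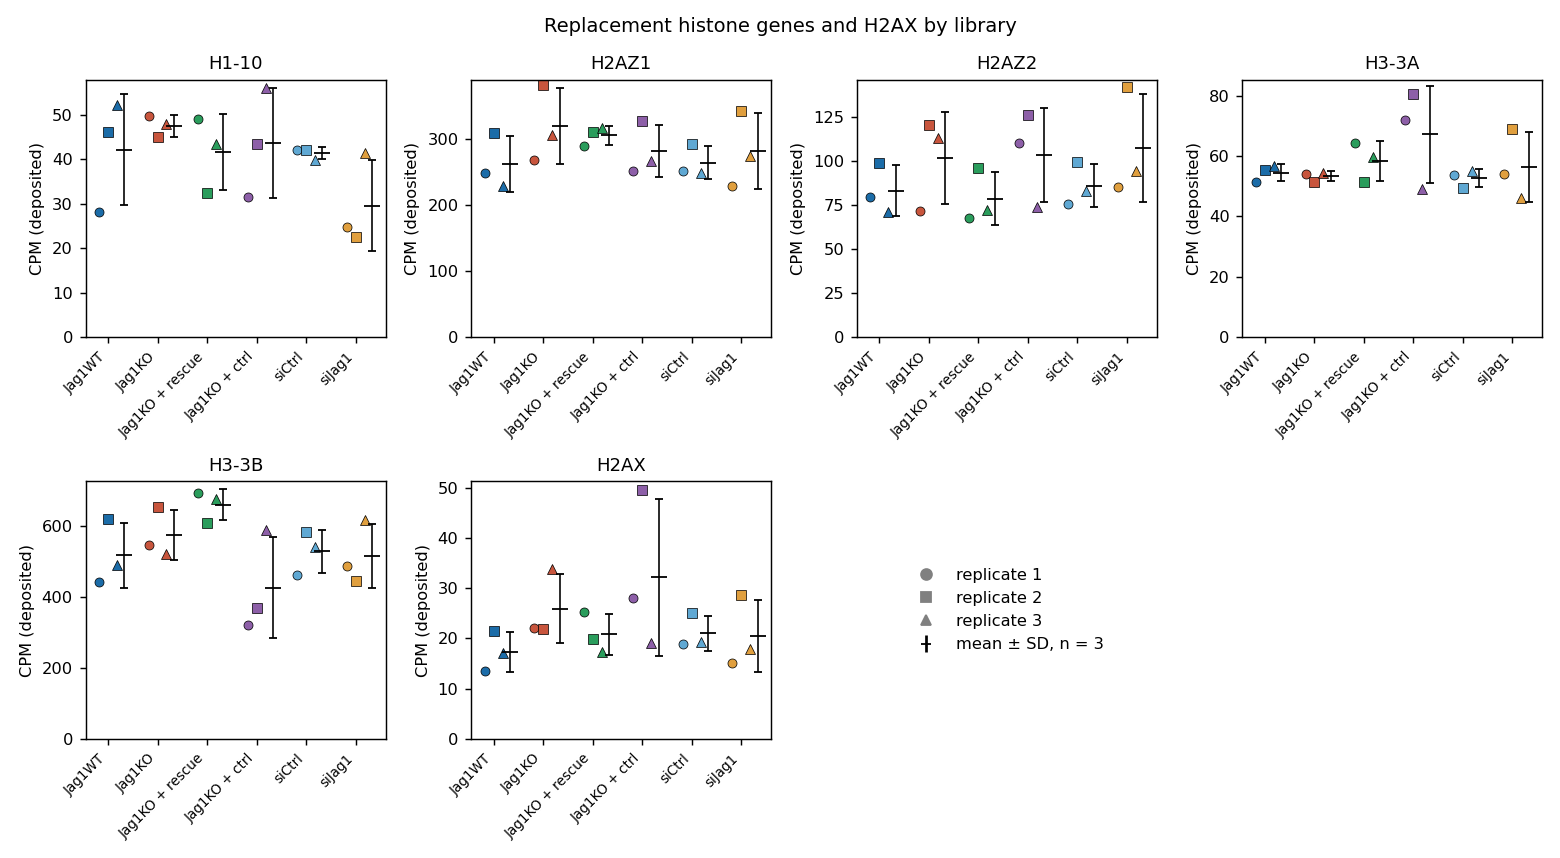
CPM of the 5 replacement histone genes and H2AX in each of the 18 libraries (points, replicate 1 circle, 2 square, 3 triangle), with bars for group mean ± SD (n = 3). The 3 rescue libraries sit at 609 to 693 CPM for H3-3B, and 2 of the 3 Jag1KO + ctrl libraries sit at 321 and 368 CPM.

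Replication-dependent genes with most reads shared their highest library. That library, rescue replicate 1, was also the highest for H3-3B (693 CPM), but for no other replacement gene. H1-2, a linker histone, was at 41.4, 45.9 and 23.7 CPM in Jag1WT, 44.6, 42.3 and 35.0 in Jag1KO, 86.7, 41.9 and 49.4 in Jag1KO + rescue, 11.9, 22.1 and 32.7 in Jag1KO + ctrl, 37.3, 32.7 and 26.4 in siCtrl, and 38.8, 27.5 and 40.2 in siJag1. H2BC12, an H2B gene, was at 39.1, 33.5 and 34.4 CPM in Jag1WT, 41.5, 39.6 and 36.5 in Jag1KO, 70.4, 29.9 and 44.0 in Jag1KO + rescue, 30.2, 27.4 and 34.8 in Jag1KO + ctrl, 41.7, 31.5 and 35.5 in siCtrl, and 45.8, 39.2 and 40.6 in siJag1. H2BC5, another H2B gene, was at 48.2, 14.5 and 17.6 CPM in Jag1KO + rescue and between 8.65 and 20.4 in the other 15 libraries. All 5 replication-dependent genes with the most reads had their highest level in rescue replicate 1, where they summed to 249 CPM, against 59.6 to 133 CPM in the other 17 libraries. The H2A gene H2AC6 read 30.3 CPM there against 5.69 to 20.7 elsewhere, and the H2A gene H2AC19 read 13.6 CPM against 1.68 to 5.87. The 3 rescue libraries were not equal, since replicate 2 lay at 99.3 CPM and replicate 3 at 126 CPM in the same sum.

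**Figure D3:**
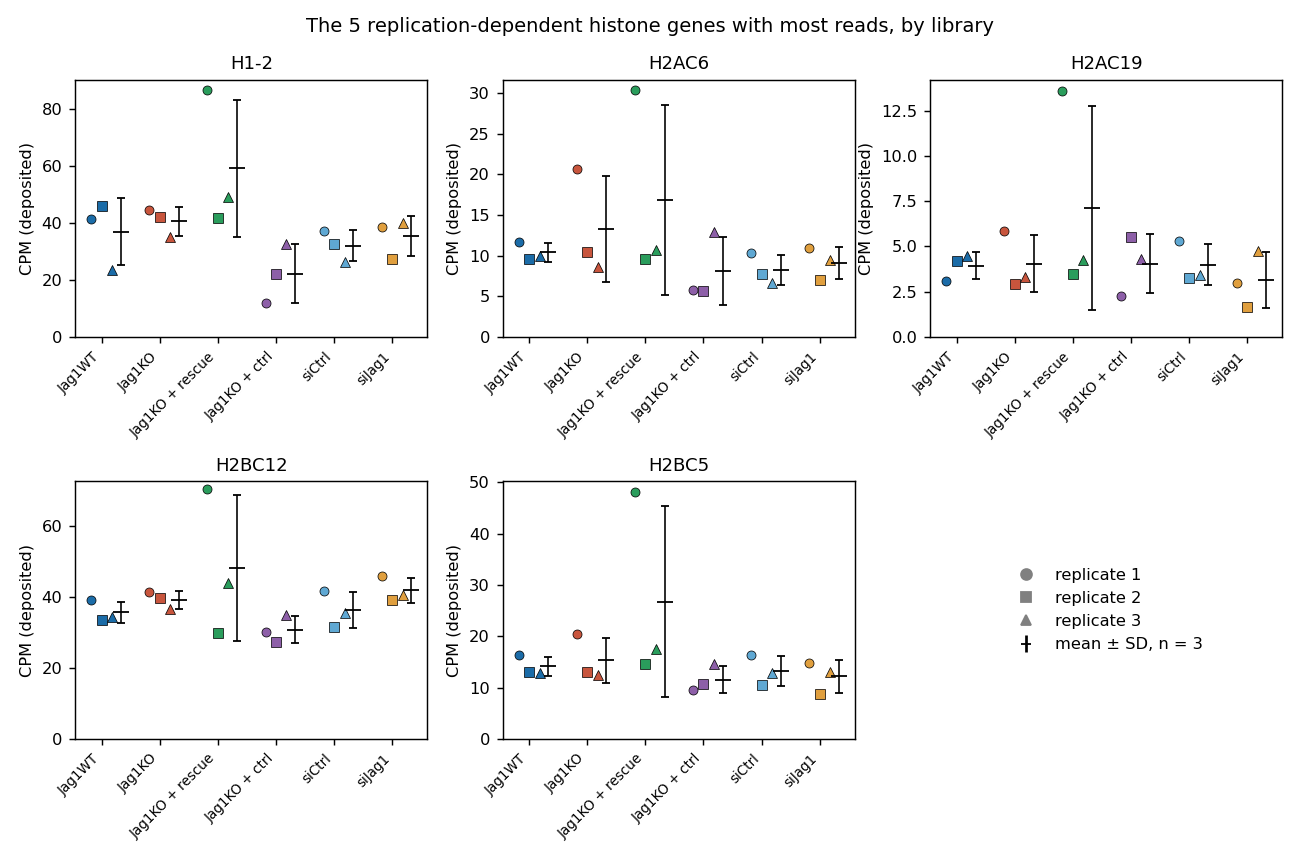
CPM of the leading replication-dependent histone genes in each library (points, replicate 1 circle, 2 square, 3 triangle), with bars for group mean ± SD (n = 3). Rescue replicate 1 is the highest library for H1-2, H2BC12, H2BC5, H2AC6 and H2AC19.

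The weakly detected replication-dependent genes had their high library elsewhere. The other 46 genes summed to 12.1, 14.7 and 13.4 CPM in Jag1WT, 20.2, 19.8 and 15.9 in Jag1KO, 32.9 in rescue replicate 1 and 15.3 in replicate 2, with replicate 3 between them, 12.1, 42.8 and 25.3 in Jag1KO + ctrl, 14.3, 15.6 and 13.0 in siCtrl, and 14.3, 11.0 and 15.8 in siJag1. Of them, 21 had their highest level in Jag1KO + ctrl replicate 2, 6 in rescue replicate 1 and 4 in Jag1KO + ctrl replicate 3. H3 genes of this set summed to 6.95 CPM in Jag1KO + ctrl replicate 2 and 2.89 CPM in replicate 3, against 0.379 to 1.62 CPM in the other 16 libraries. H4 genes summed to 12.3 and 8.30 CPM in the same 2 libraries, against 2.90 to 6.52 CPM elsewhere. Among single genes, H1-4 read 4.85 CPM in Jag1KO + ctrl replicate 2 against at most 1.08 elsewhere, H3C2 1.86, H3C15 2.22 and H3C3 1.14 CPM. The same libraries held 668 and 378 CPM of RNAs without poly(A) tails. Jag1KO replicate 1, with 245 CPM of them, had 1.24 CPM of H3 genes, within the range of the others. Its 6.52 CPM of H4 genes was the highest sum among the other 16 libraries. In rescue against ctrl, the edgeR fit described below called 0 of the 4 RNAs tested, with log2 differences of -5.44 ± 1.40 for RN7SK, -3.68 ± 0.86 for RN7SL1 and -3.61 ± 0.95 for RN7SL2. The part of these RNAs in the histone values was not tested. Depth limits these genes, because 3 reads correspond to between 0.176 and 0.287 CPM in a library, and near-identical copies such as H2AC18 and H2AC19, H3C14 and H3C15, or H4C14 and H4C15 share reads that uniquely mapped counting cannot assign, so that their split is uncertain. Other members that rank among the first 3 of their histone class were as low, with means of 0.775 CPM for H4C12, 0.729 for H1-4, 0.533 for H2AC18, 0.303 for H3C2, 0.253 for H3C15, 0.238 for H3C3 and 0.0120 for H1-6. The pseudogene H2BC20P averaged 0.909 CPM, and H2AZ1-DT was at no more than 0.117 CPM in any library.

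**Figure D4:**
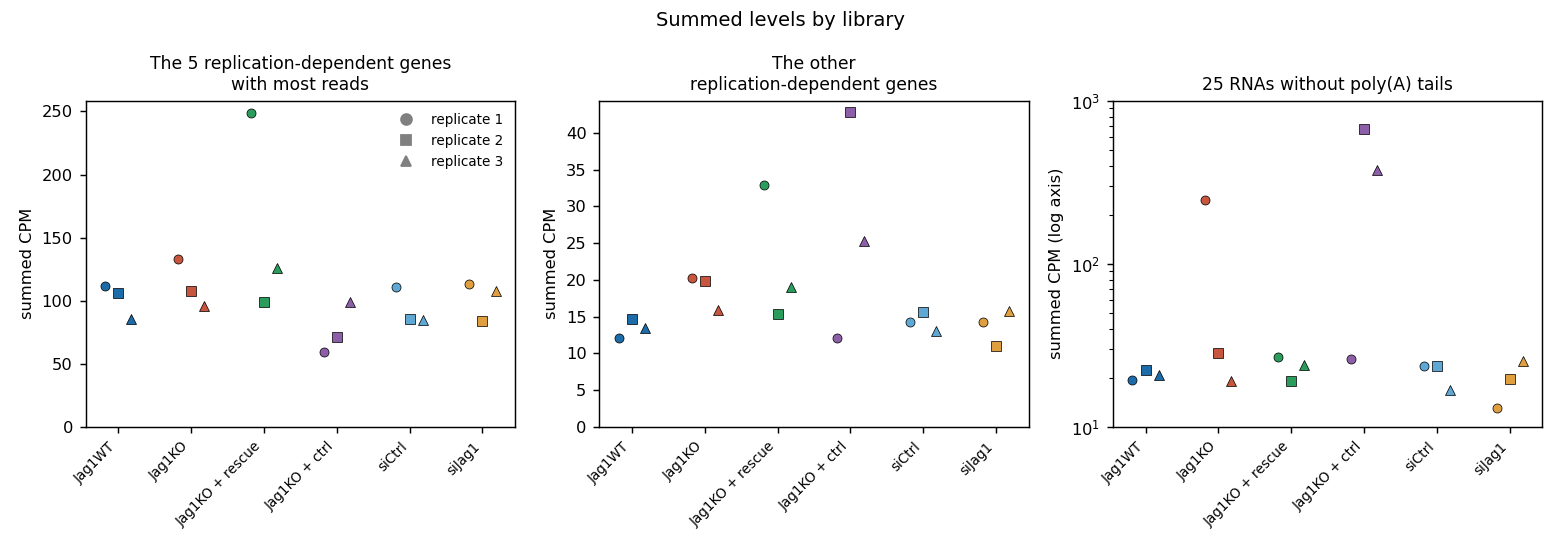
Summed CPM by library on 3 panels: the 5 replication-dependent genes with most reads, the other 46, and 25 RNAs without poly(A) tails (log axis). The first panel peaks in rescue replicate 1 at 249 CPM and the second in Jag1KO + ctrl replicate 2 at 42.8 CPM, the library with 668 CPM in the third.

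More JAG1 was set against less in 3 comparisons that share no library. These were Jag1WT against Jag1KO, then the rescue plasmid against the empty plasmid (rescue against ctrl), and last the nontargeting against the JAG1 siRNA. Each was fitted over all genes with edgeR's quasi-likelihood test, a gene being called at a Benjamini-Hochberg adjusted p below 0.05 and a fold above 1.5, and a positive log2 fold change meaning higher with more JAG1. Fewer cells of a type and less RNA per cell cannot be told apart in bulk libraries. In these fits JAG1 itself was higher by 1.71 ± 0.22 (SE) on the log2 scale in Jag1WT, by 2.22 ± 0.18 in rescue and by 1.68 ± 0.19 in siCtrl, with adjusted p of 0.0163, 0.0227 and 0.111 by edgeR, so that the siRNA comparison did not reach the threshold even for its target. Same-numbered siCtrl and siJag1 libraries deviated together, and a fit blocked on that number passed JAG1 (adjusted p = 0.0181, edgeR).

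In Jag1WT against Jag1KO, no histone gene differed beyond the threshold. Of 16 members tested, 0 were called, against 0.704% of all 12928 genes, and 1 had an unadjusted p below 0.05, against 8.82%. DESeq2 called 0 members against 1.82% of all genes, and limma 0 members against 0.719%. The member with an unadjusted p below 0.05 by edgeR was H2AX, at 13.6, 21.5 and 17.0 CPM in Jag1WT and 22.0, 21.9 and 33.9 in Jag1KO. The groups did not overlap, which held for 1 of the 16 members and for 13.8% of all genes. The log2 difference was -0.58 ± 0.24, with an adjusted p of 0.532 by edgeR. The 10 replication-dependent members tested all had negative differences, with a median of -0.14 and a range from -0.77 (H4C14) to -0.06 (H2AC19), beside -0.01 over all genes, and the 5 replacement members had a median of -0.17. None of them had groups apart. The negative direction of all 10 rested on single libraries. Without Jag1KO replicate 1, which held 245 CPM of RNAs without poly(A) tails, 7 of 10 were negative with a median of -0.06. In that fit 935 genes (7.29%) and 0 of 16 members were called. H2AZ2 passed the adjusted p there (0.0484, edgeR) but not the fold. Leaving out Jag1WT replicate 1 or 3 left 8 of 10 negative, and leaving out Jag1KO replicate 3 left 9, with a median of -0.28. For H1-2 the difference was -0.14, with 2 SE bounds of -0.61 and 0.32, and for H3-3A 0.03, with bounds of -0.18 and 0.23. For H2BC12 they were -0.38 and 0.09.

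In Jag1KO + rescue against Jag1KO + ctrl, most replication-dependent members had higher values in rescue, but no member was called. The edgeR test called 0 of 18 members and 0.00776% of all 12894 genes, which was JAG1 alone. An unadjusted p below 0.05 was seen for 4 members (H1-2, H2BC5, H3-3B and H2BC21), all higher in rescue, against 30.8% of all genes, and groups were apart for 2 of the 18 (H1-2 and H3-3B), against 32.4%. The shares of members were thus below those of all genes. H1-2 was at 86.7, 41.9 and 49.4 CPM in rescue and 11.9, 22.1 and 32.7 in ctrl, a log2 difference of 1.40 ± 0.40 (adjusted p = 0.107, edgeR). H3-3B differed by 0.62 ± 0.24 (adjusted p = 0.136, edgeR), and H2BC5 by 1.20 ± 0.45 (adjusted p = 0.132, edgeR). H2BC21, which was named for its unadjusted p after its values were seen, differed by 1.35 ± 0.53. H2AX was lower in rescue by -0.64 ± 0.34 and H2AZ2 by -0.40 ± 0.23, both with overlapping groups. Replication-dependent members had a median of 0.63 over 11 tested, 10 of them positive, and the 5 replacement members had a median of -0.08.

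These values moved with single libraries and with the test. Without rescue replicate 1, the log2 difference was 0.47 for H2BC5, 0.32 for H2AC6, 0.26 for H2BC12, 0.57 for H2BC21 and -0.06 for H2AC19, while it was 1.03 for H1-2. The replication-dependent median was then 0.22, with 3 of 10 negative. Without ctrl replicate 3, 4 members were called with 3659 of all genes (28.7%), H3-3B and H1-2 being higher and H2AX and H2AZ2 lower in rescue. DESeq2 called 2 members (H1-2 and H2BC5) with 1572 of all genes (12.2%), and one fit of all 18 libraries called 5 (H2BC21, H3-3B, H1-2, H2BC5 and H2BC12) with 2139 of all genes (16.7%). Leaving out the libraries rich in RNAs without poly(A) tails, ctrl replicates 2 and 3, left 1 ctrl library, the one with the lowest H1-2 and H3-3B (11.9 and 321 CPM). The spread then came from the rescue libraries, the lone library being assumed to vary like them, and 0 members and 0 genes were called, with medians of 1.49 for replication-dependent and 0.28 for replacement members. With no filter on low values, 30 of 47 replication-dependent genes were negative, with a median of -0.80. The weakly detected genes of that fit are those whose sum was highest in Jag1KO + ctrl replicate 2.

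In siCtrl against siJag1, no member passed the test. The edgeR test called 0 of 17 members and 0.0156% of all 12823 genes, and no member had an unadjusted p below 0.05, against 3.83% of all genes. DESeq2 also called 0 members, against 0.195% of all genes, with 1 member below that unadjusted p. With the replicate block, edgeR called 4 genes in place of 2, and 0 members. H2BC18 had groups apart, at 2.62, 3.57 and 3.04 CPM in siCtrl and 2.27, 1.95 and 2.31 in siJag1, a log2 difference of 0.51 ± 0.22, and it was the only one of 17 members against 10.5% of all genes. H1-10 differed by 0.49 ± 0.22 (41.2 ± 1.36 against 29.5 ± 10.2 CPM, SD, n = 3), with overlapping groups. For H1-2 the bounds at 2 SE were -0.51 and 0.24, and for H3-3B they were -0.26 and 0.34.

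**Figure D5:**
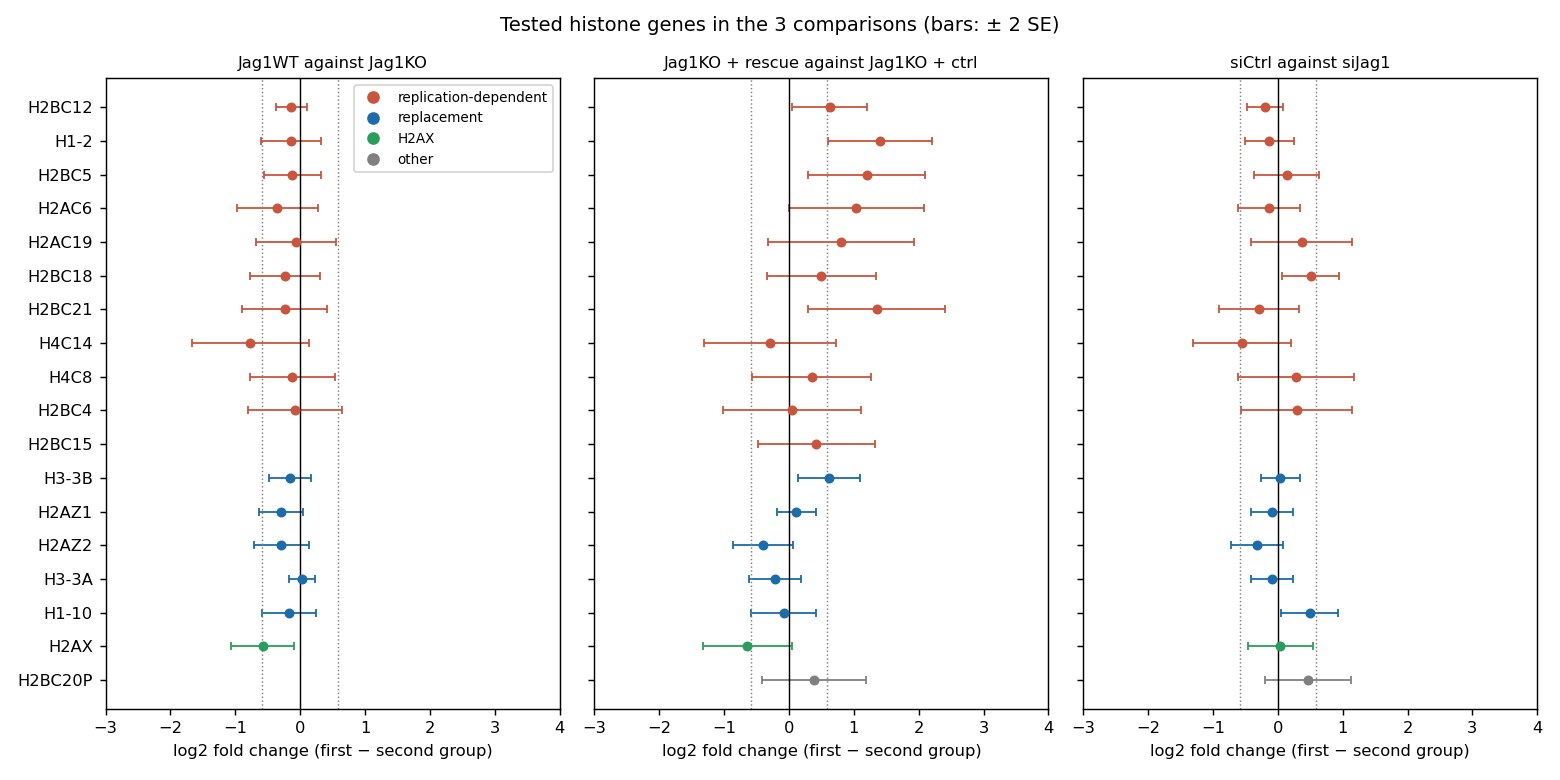
Log2 fold change (more JAG1 over less JAG1) of the tested histone genes in the 3 comparisons, with bars of ± 2 SE and dotted lines at the fold threshold of 1.5 either way. The middle panel has 10 of 11 replication-dependent genes positive, up to 1.40 for H1-2, and H4C14 at -0.29, while the other comparisons lie between -0.77 and 0.51.

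The control comparisons, in which JAG1 was not changed on purpose, share libraries with those above. Jag1KO + ctrl differed from Jag1KO by the empty plasmid and by G418 selection, which cannot be told apart here. In Jag1KO + ctrl against Jag1KO, edgeR called 0 of 19 members and 0 of all 13004 genes. An unadjusted p below 0.05 was seen for 2 members against 5.81% of all genes, both lower in ctrl with groups apart (10.1% of all genes). They were H1-2 (-0.88 ± 0.33, adjusted p = 0.760, edgeR) and H2BC12 (-0.36 ± 0.15). H1-4 and H4C12 passed the filter only in this comparison. Leaving out the 3 libraries rich in RNAs lacking poly(A) tails left ctrl replicate 1 alone against 2 Jag1KO libraries, so that the spread came from those 2. H3-3B and H1-2 were then called, at -0.88 and -1.71, with 1531 genes (11.9%), which describes that 1 ctrl library. In siCtrl against Jag1WT, edgeR called 0 of 16 members and 0 of all 12847 genes. Among the members, 0 had an unadjusted p below 0.05 (1.38% of all genes) and 0 had groups apart (6.30%). DESeq2 and limma also called 0 members and 0 genes. With the replicate block 1 gene and 0 members were called. The largest difference was 0.48 ± 0.38, for H4C8.

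The difference between the comparisons was tested in one fit of 18 libraries. Between Jag1WT against Jag1KO and rescue against ctrl, edgeR called 866 of 12803 genes (6.76%) at an adjusted p below 0.05, and 0 of 16 members, with 6 below an unadjusted p of 0.05. The lowest adjusted p among members was 0.0591, for H1-2 (-1.53 ± 0.47, edgeR). Between rescue against ctrl and siCtrl against siJag1, 253 genes (1.98%) and 0 members were called, H1-2 having 1.52 ± 0.47 (adjusted p = 0.0830, edgeR) and 3 members an unadjusted p below 0.05. Between Jag1WT against Jag1KO and siCtrl against siJag1, 16 genes (0.125%) and 0 members were called, and 0 members had an unadjusted p below 0.05. The share of all genes below that unadjusted p was not counted for these differences. The 6, 3 and 0 members therefore cannot be set against it. In rescue against ctrl by itself that share was 30.8%.

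Genes that make histone mRNA and deposit histones were examined as lists, none of whose genes is a member. In the 3 comparisons edgeR called 0.704%, 0.00776% and 0.0156% of all genes. Of 26 tested genes listed for histone mRNA metabolism, it called 0 in any of them. The number with an unadjusted p below 0.05 was 0 in Jag1WT against Jag1KO, 9 in rescue against ctrl (7 higher and 2 lower in rescue) and 1 in siCtrl against siJag1, against 8.82%, 30.8% and 3.83% of all genes. The 9 were thus a share near that of all genes. SLBP, which binds the stem-loop, differed by 0.33 ± 0.20, 0.06 ± 0.19 and -0.14 ± 0.19, and NPAT, the coactivator of histone loci, by -0.12 ± 0.20, 0.25 ± 0.20 and -0.25 ± 0.12. In rescue against ctrl, the 3 largest were HINFP, a factor for H4 promoters (0.83 ± 0.31), NCBP2, a cap-binding protein (0.70 ± 0.20, adjusted p = 0.107, edgeR), and LSM1, which takes part in mRNA decay (0.63 ± 0.17). In Jag1WT against Jag1KO they were CASP8AP2 (-0.35 ± 0.15), SLBP and LSM11 (0.30 ± 0.34), and in siCtrl against siJag1 CSTF2 (-0.34 ± 0.14), MIIP (0.29 ± 0.18) and CASP8AP2 (-0.29 ± 0.25). MIIP stood on the list, and the counts include it, but it is not an established gene of histone mRNA metabolism.

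Of the 28 chaperones and deposition factors, MCM2 was the sole gene called, in Jag1WT against Jag1KO, where 0.704% of all genes were called. MCM2, a replicative helicase subunit that also binds histones H3 and H4, was at 30.4, 26.9 and 27.8 CPM in Jag1WT and 49.5, 42.8 and 53.5 in Jag1KO, with no overlap and a log2 difference of -0.78 ± 0.13 (adjusted p = 0.0445, edgeR). The call was kept without Jag1KO replicate 1 (adjusted p = 0.0103, edgeR) and lost on leaving out any of the other 5 libraries (0.0810 to 0.271) and in one fit of 18 libraries (0.472), with differences between -0.86 and -0.70. Of the 28, 8 had an unadjusted p below 0.05 in that comparison, 7 of them lower in Jag1WT, against 8.82% of all genes. In the other 2 comparisons 0 of 28 were called, against 0.00776% and 0.0156% of all genes. Below that p were 7 and 0 of the 28, against 30.8% and 3.83% of all genes. CHAF1B, a subunit of the replication-coupled chaperone CAF-1, differed by -1.34 ± 0.44, -1.61 ± 0.52 and -0.97 ± 0.62. HJURP, the chaperone of CENPA, differed by -1.24 ± 0.78, -2.07 ± 0.75 and -0.92 ± 0.81. TONSL, which binds newly replicated chromatin, differed by -0.94 ± 0.24 in the first comparison and -2.09 ± 0.44 in the second, and ASF1B, an H3 and H4 chaperone, by -0.61 ± 0.59 in the third. The 4 tested genes of other variants held none called: CENPA, the centromeric H3, differed by -1.44 ± 0.80, -1.80 ± 0.91 and -0.87 ± 0.92, H2AJ by 0.52 ± 0.18 in siCtrl against siJag1, and MACROH2A1 by -0.11 ± 0.14, -0.17 ± 0.16 and -0.10 ± 0.14. H3-5, an H3 gene, averaged 37.6 CPM in rescue and 24.8 CPM in ctrl, a log2 difference of 0.59 ± 0.21, with groups apart. H3-3B differed by 0.62 ± 0.24 there, and whether both genes share reads was not tested.

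Cell cycle genes are given beside the histones because replication-dependent transcripts are made in S phase. Some genes of the lists above, among them SLBP and CENPA, are also S or G2/M genes, so that these lists are not independent. The shares of all genes called by edgeR were 0.704%, 0.00776% and 0.0156% in the 3 comparisons. Of 43 S genes and 54 G2/M genes tested, 0 were called in any of them. Their medians were -0.86 and -1.08 in Jag1WT against Jag1KO, -0.83 and -1.24 in rescue against ctrl, and -0.59 and -0.63 in siCtrl against siJag1, against medians of the replication-dependent histones of -0.14, 0.63 and 0.00. For S genes, 28, 23 and 0 had an unadjusted p below 0.05 in the 3 comparisons in that order, and for G2/M genes 1, 20 and 0, against 8.82%, 30.8% and 3.83% of all genes. Groups were apart for 19, 4 and 0 S genes and for 0, 1 and 1 G2/M genes, against 13.8%, 32.4% and 10.5% of all genes. The largest differences were those of TYMS (-1.59 ± 0.61), EXO1 (-1.57 ± 0.59), GINS2 (-1.55 ± 0.48), DLGAP5 (-1.74 ± 0.91), MKI67 (-1.51 ± 0.77) and CDC25C (-1.48 ± 0.95) in Jag1WT against Jag1KO. In rescue against ctrl they were those of PRIM1 (-1.83 ± 0.55), DSCC1 (-1.82 ± 0.48), GINS2 (-1.77 ± 0.57), CDCA3 (-2.61 ± 0.84), PIMREG (-2.56 ± 0.96) and CDC25C (-2.27 ± 0.90). In siCtrl against siJag1 they were those of CDCA7 (-1.30 ± 0.59), WDR76 (-1.22 ± 0.75), E2F8 (-1.06 ± 0.86), CDCA3 (-1.32 ± 0.95), PIMREG (-1.26 ± 0.84) and CDCA2 (-1.23 ± 0.83). Among these genes, chosen by the size of their difference, only DSCC1 had groups apart. By library, the mean log2(CPM + 1) of the G2/M genes was 6.01 in Jag1KO replicate 2, 6.09 in replicate 3, 6.11 and 6.55 in Jag1KO + ctrl replicates 1 and 2 and 6.45 in siJag1 replicate 2, and 4.06 to 5.59 in the other 13 libraries. The same 5 libraries had H2AZ2 at 110 to 142 CPM, against at most 99.2 elsewhere. Jag1KO + ctrl replicates 1 and 2 also had the lowest H1-2 and H3-3B values, with S means of 5.24 and 5.50, and Jag1KO + rescue replicate 1, with the most replication-dependent reads, had a G2/M mean of 4.06 and an S mean of 4.34. The part of the cell cycle in the histone values was not tested.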

How the data were processed

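RNA was measured in 18 poly(A)-selected libraries (TruSeq Stranded mRNA) of 6 groups of 3. Per the labels and the study's methods, the authors aligned reads to hg38, counted uniquely mapped reads per gene with featureCounts, and normalized with edgeR 3.28.0 in R 3.6.1. The deposited raw counts were used for every test. The signal in CPM, deposited by the authors, is TMM-scaled, and the deposited RPKM values are that CPM per kilobase; they served to describe levels and gene lengths. 3 RPKM columns whose names matched no sample were not used. Counts without a gene symbol (292 entries, at most 0.0442% of a library) stayed in the totals, the fits and the shares of all genes.

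Members were found by symbol and split into classes, and 1 gene is not reported here; members and lists were chosen with earlier results of these data known. Each comparison was fitted over its 6 libraries with edgeR 4.0.16's quasi-likelihood test (R 4.3.3), TMM scaling and Benjamini-Hochberg adjustment over all genes above 1 CPM in at least 3 libraries. Genes were called at an adjusted p below 0.05 and a fold above 1.5. This test replaces the study's, which was not available here. SEs are the log2 difference divided by the root of the F statistic. Transcript ends come from the GENCODE annotation on hg38, promoters from RefSeq. Named members were any called, the 3 most abundant replication-dependent genes of each of H1, H2A, H2B, H3 and H4, the replacement genes and H2AX; from other lists, called genes, the 3 largest differences, SLBP and NPAT. The tests were tried on simulated counts with a common dispersion for all genes, a setting without libraries that stand apart as some do here. Alternatives were DESeq2 1.42.0, its size factors, limma 3.58.1, no low-count filter, one fit of 18 libraries, a replicate block, leaving out each library and, chosen after seeing the data, leaving out libraries rich in RNAs lacking poly(A) tails. p-values measure the spread between these libraries, and read intervals and floors cover counting error only.

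Same-numbered siCtrl and siJag1 libraries deviated together (correlations 0.542, 0.522 and 0.263), as did siCtrl and Jag1WT (0.594, 0.711 and 0.209). The replicate number was not used in the reported fits. For Jag1WT and Jag1KO (0.632, 0.667 and -0.0136) and rescue and ctrl (-0.208, 0.345 and 0.241) it did not pair all libraries.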

Additional observations from a re-analysis of the deposited data

How the results depend on the processing

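Of 515 values of 14 named members under the alternatives (42 results), 480 kept their direction and side of the threshold, 10 passed it, and 25 turned direction, 23 of these on leaving out 1 library; the cause was not tested. With the replicate block, 0 members were called in any comparison, while genes called were 283 against 91 in Jag1WT against Jag1KO, 3 against 1 in rescue against ctrl and 4 against 2 in siCtrl against siJag1. In siCtrl against Jag1WT it called 1 gene against 0. With the block, JAG1 passed in the siRNA comparison (adjusted p = 0.0181, edgeR).

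In Jag1WT against Jag1KO, genes called were 235 with DESeq2 and 162 with no filter, and 8 to 935 on leaving out 1 library; with no filter the replication-dependent median was -0.59, and on leaving out 1 library it ran from -0.28 to -0.06. In rescue against ctrl, members called were 2 with DESeq2 and 5 in one fit of 18 libraries, and 0 to 4 on leaving out 1 library. Genes called were 1572 with DESeq2, 2 with limma, 2 with no filter and 2139 in the 18-library fit, and 0 to 3659 on leaving out 1 library. The replication-dependent median was -0.80 with no filter and 0.22 to 0.88 on leaving out 1 library. With ctrl replicate 1 as the lone ctrl library it was 1.49, the replacement median was 0.28, and 0 genes were called. On leaving out 1 library the replacement median ran from -0.21 to 0.07 there and from -0.13 to 0.08 in siCtrl against siJag1. Without TMM factors the replacement sum of rescue averaged 1076 CPM against 1144. In siCtrl against siJag1, genes called were 25 with DESeq2, 0 with limma, 8 with no filter, 7 in the 18-library fit, and 0 to 4 on leaving out 1 library. In Jag1KO + ctrl against Jag1KO, members called were 0 on leaving out 1 library and 2 without the libraries rich in RNAs lacking poly(A) tails, which left 1 ctrl library.

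On leaving out 1 library, log2 differences in Jag1WT against Jag1KO ran from -0.33 to 0.09 for H1-2, -0.58 to 0.12 for H2AC6, -0.24 to 0.32 for H2AC19, -0.24 to 0.13 for H2BC5, -0.31 to 0.02 for H4C8, -0.36 to 0.05 for H1-10 and -0.01 to 0.08 for H3-3A. In rescue against ctrl they ran from -0.06 to 1.12 for H2AC19, -0.66 to 0.18 for H4C14 and -0.28 to 0.15 for H1-10, and without ctrl replicates 2 and 3 they were 0.97 for H4C14 and 0.41 for H1-10. In siCtrl against siJag1 they ran from -0.06 to 0.29 for H2BC5, -0.17 to 0.67 for H4C8, -0.22 to 0.08 for H2AZ1, -0.22 to 0.09 for H3-3A, -0.06 to 0.19 for H3-3B and -0.14 to 0.37 for H2AX. None of these turned values passed the threshold. Depth limits the 41 replication-dependent genes below 1 CPM.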
